A study of Mus musculus with 16 samples.

Results

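The change in RNA between 12 and 24 h after mouse embryonic stem cells left 2i/LIF medium is described here, the middle stretch of a time course of exit from naive pluripotency. It was read as the 2 libraries collected at 24 h against the 2 collected at 12 h, 4 of the study's 16 libraries, over every gene with enough counts to test. These were 14288 of the 27179 genes in the deposited table. The study followed mouse embryonic stem (ES) cells kept in 2i/LIF or in serum/LIF+2i, at 0, 12, 24 and 40 h after exit, with 2 libraries for each of 8 groups.

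All groups began as ES cells grown on gelatin in serum/LIF, where LIF is leukaemia inhibitory factor, and had 3 passages of adaptation and at most 9 passages afterwards. The 2i/LIF medium was a serum-free mix of DMEM/F-12 and Neurobasal with N-2 and B-27 supplements, 2 mM glutamine, LIF and the 2 inhibitors that give 2i its name, 3 µM CHIR99021 against GSK3 and 1 µM PD0325901 against MEK. For exit, cells seeded at least 24 h earlier were rinsed and given the same medium without 2i and LIF, for 12 h in one group and 24 h in the other. The 0 h group kept its inhibitors and LIF. Cells of the serum/LIF+2i groups were kept with 10% serum, LIF and the same inhibitors, then moved to a serum-free mix built on glutamine-free DMEM with 2 mM glutamine added back. No genetic change is named for any group, and neither the ES line nor whether the 2 libraries of a group came from separate cultures is given, so p-values measure the spread between these libraries, which may be technical.

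Naive ES cells are held in place by a network of transcription factors such as Nanog, Esrrb, Tfcp2l1 and Klf4, which LIF sustains through STAT3 and GSK3 inhibition sustains by relieving the repressor Tcf7l1. When inhibitors and LIF are withdrawn, FGF-driven ERK signalling resumes, the network is dismantled, and cells pass into a formative state marked by Otx2, Pou3f1 and the de novo DNA methyltransferases. The same period is known for shifts in metabolism, and the study's title sets it in the context of how pluripotent cells obtain amino acids.

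The 250 bases before the annotated start are shown for 6 genes on which the results below turn: the largest rise (Vrtn), a rise and a methyltransferase of the formative state (Gadd45g and Dnmt3b), a naive factor (Nanog), a ligand that fell (Bmp4), and a target of the amino acid response whose change depended on the medium (Chac1). They were copied from RefSeq on GRCm38.p6, the assembly that mm10 names, and run 5′ to 3′ on each gene's strand: Vrtn chr12:84640769-84641018 (plus), Gadd45g chr13:51846425-51846674 (plus), Dnmt3b chr2:153649199-153649448 (plus), Nanog chr6:122707239-122707488 (plus), Bmp4 chr14:46390670-46390919 (minus) and Chac1 chr2:119350992-119351241 (plus). Capitals mark letters that match a searched motif on either strand.
Vrtn: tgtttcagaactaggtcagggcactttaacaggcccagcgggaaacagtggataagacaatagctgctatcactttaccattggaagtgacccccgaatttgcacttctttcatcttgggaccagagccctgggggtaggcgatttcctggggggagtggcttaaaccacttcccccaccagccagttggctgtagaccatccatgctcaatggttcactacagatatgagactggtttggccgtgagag
Gadd45g: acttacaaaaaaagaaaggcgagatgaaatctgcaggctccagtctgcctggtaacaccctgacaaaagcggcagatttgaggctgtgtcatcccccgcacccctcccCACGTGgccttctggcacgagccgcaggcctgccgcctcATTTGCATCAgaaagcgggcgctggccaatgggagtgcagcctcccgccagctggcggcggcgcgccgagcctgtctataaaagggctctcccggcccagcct
Dnmt3b: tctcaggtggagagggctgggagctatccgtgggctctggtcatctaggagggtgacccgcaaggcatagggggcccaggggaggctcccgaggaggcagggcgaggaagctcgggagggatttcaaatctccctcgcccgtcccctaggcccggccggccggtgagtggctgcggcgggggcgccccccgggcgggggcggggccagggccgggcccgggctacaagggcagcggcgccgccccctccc
Nanog: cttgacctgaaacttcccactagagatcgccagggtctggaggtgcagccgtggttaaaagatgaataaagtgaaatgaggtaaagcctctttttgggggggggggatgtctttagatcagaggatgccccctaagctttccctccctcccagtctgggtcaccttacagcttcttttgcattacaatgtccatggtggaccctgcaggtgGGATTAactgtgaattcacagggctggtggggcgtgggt
Bmp4: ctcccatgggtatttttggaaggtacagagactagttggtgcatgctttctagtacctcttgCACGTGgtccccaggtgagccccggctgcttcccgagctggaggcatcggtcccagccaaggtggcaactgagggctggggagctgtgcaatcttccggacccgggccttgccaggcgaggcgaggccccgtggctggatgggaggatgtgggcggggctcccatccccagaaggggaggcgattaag
Chac1: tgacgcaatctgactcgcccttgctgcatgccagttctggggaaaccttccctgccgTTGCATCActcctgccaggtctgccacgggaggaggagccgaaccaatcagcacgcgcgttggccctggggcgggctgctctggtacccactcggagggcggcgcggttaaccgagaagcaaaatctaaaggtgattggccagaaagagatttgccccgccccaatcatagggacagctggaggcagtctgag
Counting back from the start, the Gadd45g stretch held an E-box (CACGTG) at -142 and, at -103 and -101, an octamer (ATGCAAAT) and an amino acid response element (AARE, TGATGCAA) that overlap on the minus strand. Nanog held an OTX2 motif (TAATCC, minus strand) at -39, Bmp4 an E-box at -188 and Chac1 an AARE (minus strand) at -193. Vrtn and Dnmt3b held none of the 7 motifs.

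Across all genes, 5021 of 14288 passed the test between 12 and 24 h (35.1%), 2486 of them higher at 24 h (17.4%) and 2535 lower (17.7%). A gene passed, or was called, when the adjusted p of edgeR's quasi-likelihood test was under 0.05. Fold changes below are log2 values from that fit with their standard errors (SE), and levels are CPM, counts scaled by library size and the TMM factor to a common total. Most changes were small: 62.6% of called genes moved by less than 1.5-fold, and the median change over all genes tested was 0.007. A change of more than 2-fold was called for 1025 genes (7.17%), of which 593 rose (4.15%) and 432 fell (3.02%). Values of the 2 times did not overlap in 9459 genes (66.2%). In bulk RNA, fewer cells of a type and less RNA per cell cannot be told apart.

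**Figure D1:**
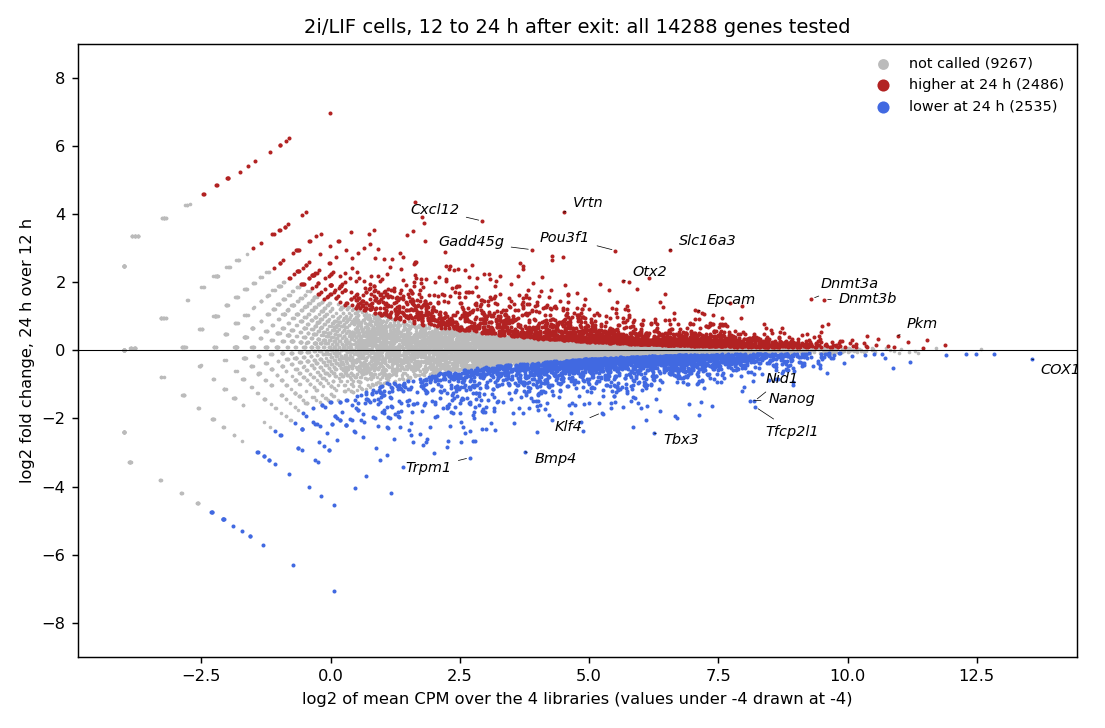
Each point is 1 of 14288 genes, with the log2 of its mean CPM over the 4 libraries on the horizontal axis and its fitted log2 fold change, 24 h over 12 h, on the vertical axis. The 2486 genes called higher are red, the 2535 called lower are blue and the rest are grey. Some grey genes with few counts lie far from 0, such as Col1a2 (-4.19).

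The 4 libraries were of like depth, with 7418253 and 7579351 counts at 12 h and 7284740 and 6629047 at 24 h, so that 3 counts corresponded to 0.401 to 0.456 CPM. Ribosomal RNA made up 0.551% to 0.858% of them. Libraries of a group correlated at 0.992 (12 h) and 0.991 (24 h) over log2 CPM, and differed by more than sampling noise. Over the 16 libraries, totals ran from 5931381 to 11142744.

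The largest rises were of genes with varied roles. Vrtn, which is known for its part in setting vertebra number, stood at 0.959 and 4.14 CPM in the 12 h libraries and 45.0 and 41.0 CPM in the 24 h libraries, a 16.7-fold rise (4.06 ± 0.23, adjusted p = 5.5e-14). Both 24 h values were far above both 12 h values, although the 12 h libraries differed from each other by several-fold. Vrtn had been as low before exit, at 3.62 and 1.67 CPM. Cxcl12, a chemokine that guides migrating cells, went from 0.822 and 1.2 CPM to 16.4 and 12.2 CPM (3.80 ± 0.29). Gadd45g, a stress-inducible growth arrest gene, went from 3.15 and 3.61 to 27.6 and 25.1 CPM (2.96 ± 0.18). The remaining leaders rose between 5.24-fold and 7.70-fold: Slc16a3, Pou3f1, Pcdh1, Enpp2, Wt1, Ccno, Fgf5, Dll1 and Greb1l.

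Slc16a3 encodes the lactate exporter MCT4. It stood at 18.6 and 24.6 CPM at 12 h and at 167 and 167 CPM at 24 h (2.94 ± 0.08, adjusted p = 1.6e-44). The annotated span of Csnk1d overlaps that of Slc16a3. Enpp2, which makes lysophosphatidic acid as autotaxin, rose from 6.44 and 5.08 to 36.6 and 41.5 CPM. Wt1, a zinc finger factor of the developing kidney and gonad, rose from 5.07 and 5.62 to 35.5 and 32.1 CPM. Lack of overlap between the 2 times was a condition for choosing these genes, and held for 66.2% of all genes.

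The largest falls included a morphogen, a naive factor and several membrane proteins. Trpm1, a cation channel, fell from 10.4 and 13 CPM to 1.80 and 0.760 CPM (-3.15 ± 0.29), 8.87-fold lower. Bmp4 fell from 25.6 and 22.7 to 3.33 and 2.73 CPM (-2.98 ± 0.20, adjusted p = 1.1e-26), 7.90-fold lower. Tbx3, a T-box factor of the naive network, fell from 126 and 133 to 21.9 and 26.3 CPM (-2.43 ± 0.08, adjusted p = 4.6e-55). The other leaders fell between 4.94-fold and 6.52-fold: the riboflavin transporter Slc52a3, the protease Mep1b, the dimethylglycine dehydrogenase Dmgdh, the proline transporter Slc6a7, the water channel Aqp3, the chloride channel Ano1, the small GTPase Mras, Crxos and She. Trpm1, Aqp3 and Dmgdh were already far below their 0 h levels by 12 h, when Aqp3 had gone from 241 and 239 to 29.6 and 24.2 CPM. Ano1 took the opposite course: it rose to 10.4 and 11.2 CPM from 1.38 and 1.06 CPM at 0 h, then fell to 2.64 and 1.52 CPM.

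The genes that took the most counts, irrespective of length, moved little. Of the transcripts called, those that lost most CPM were mitochondrial and matrix RNAs, led by COX1, and those that gained most were Actb, Dnmt3a, Dnmt3b, Ncl, Pkm and Phc1. Phc1, a subunit of polycomb complex PRC1, rose 1.71-fold from 579 and 577 CPM (0.77 ± 0.04). Ncl, the nucleolar protein nucleolin, rose 1.13-fold (0.17 ± 0.03).

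Naive factors fell as a group. Of 20 naive genes, 16 fell, 3 rose and 1 did not pass (95.0% called, against 35.1% of all genes), and their median change was -0.91 against 0.007 over all genes. Over the 38 lists used here, 396 of 766 tested members were called, a larger share than over all genes. The median level was 40.89 CPM for called genes and 16.68 CPM for the rest. Whether level accounts for that larger share was not tested. Nanog (Entrez 71950) stood at 412 and 406 CPM at 12 h and 148 and 144 CPM at 24 h (-1.49 ± 0.04, adjusted p = 2e-59), a 2.80-fold fall. Tfcp2l1 (Entrez 81879), which LIF induces, fell from 451 and 448 to 144 and 142 CPM (-1.65 ± 0.04, adjusted p = 1.5e-63). Klf4, a STAT3 target and reprogramming factor, fell from 55.8 and 63.0 to 16.9 and 16.6 CPM (-1.83 ± 0.10). In all 3 genes the replicates lay close together and the times did not overlap, as in 66.2% of all genes.

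Other naive genes fell less than these. Esrrb, an orphan nuclear receptor downstream of GSK3 inhibition, fell from 644 and 683 to 328 and 330 CPM (-1.01 ± 0.04). Tdh, the threonine dehydrogenase on which mouse ES cells depend for one-carbon units, fell from 467 and 460 to 251 and 251 CPM (-0.88 ± 0.04). Zfp42 (Rex1), the usual reporter of exit, fell only from 393 and 390 to 307 and 300 CPM (-0.37 ± 0.04). The 3 listed genes that rose were Gbx2, a homeobox gene, Fgf4, which makes the ligand that drives exit, and Esrp1, a splicing regulator of epithelial cells, rose from 18.1 and 15.6 to 40.0 and 45.7 CPM (1.34 ± 0.11). Fgf4's call was slight (0.12 ± 0.04) and was lost when 1 library was left out in 3 of 4 cases (adjusted p = 0.063 to 0.22) and in DESeq2 (adjusted p = 0.092).

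The core factors shared by naive and later pluripotency moved less. Of 11, 5 rose, 3 fell and 3 did not pass (72.7% called, against 35.1% of all genes), with a median change of 0.09. Pou5f1 (Oct4) fell from 852 and 834 to 743 and 750 CPM (-0.18 ± 0.04), Sox2 by 0.32 and the spalt factor Sall4 by 0.44 on the log2 scale. Sox2 lies within the overlapping gene Sox2ot, whose reads may be shared. Lin28a, which blocks let-7 maturation, rose from 296 and 292 to 437 and 446 CPM (0.59 ± 0.04), and Utf1, a chromatin factor of pluripotent cells, rose from 287 and 331 to 445 and 427 CPM (0.50 ± 0.05).

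Formative genes rose. Of 22 formative and primed genes, 17 rose, 4 fell and 1 did not pass (95.5% called, against 35.1% of all genes), with a median change of 0.86. Otx2 (Entrez 18424), the homeobox factor that redirects Oct4 to new enhancers, rose from 18.6 and 21.1 to 84.0 and 78.9 CPM (2.03 ± 0.10, adjusted p = 8.2e-40), and stood at a mean of 62.4 CPM at 40 h. Pou3f1 (Oct6) rose from 9.59 and 11.5 to 84.0 and 77.2 CPM (2.93 ± 0.14). Fgf5, the classical marker of the early epiblast, rose from 2.19 and 1.74 to 8.33 and 14.3 CPM (2.50 ± 0.29), with its 24 h libraries apart from each other by more than those of Otx2 or Pou3f1.

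Lef1 and Grhl2 had different histories. Lef1, a Wnt effector, was at 26.6 CPM before exit, at 15.4 and 15.4 CPM at 12 h and at 58.0 and 59.7 CPM at 24 h (1.94 ± 0.10). Grhl2, which opens epithelial enhancers in the formative state, rose from 21.0 and 17.3 to 65.5 and 64.3 CPM (1.76 ± 0.10). Among the 4 that fell, Etv4, an ETS factor downstream of ERK, went from 144 and 144 to 118 and 116 CPM (-0.30 ± 0.06) after a rise from 13.2 CPM at 0 h.

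**Figure D2:**
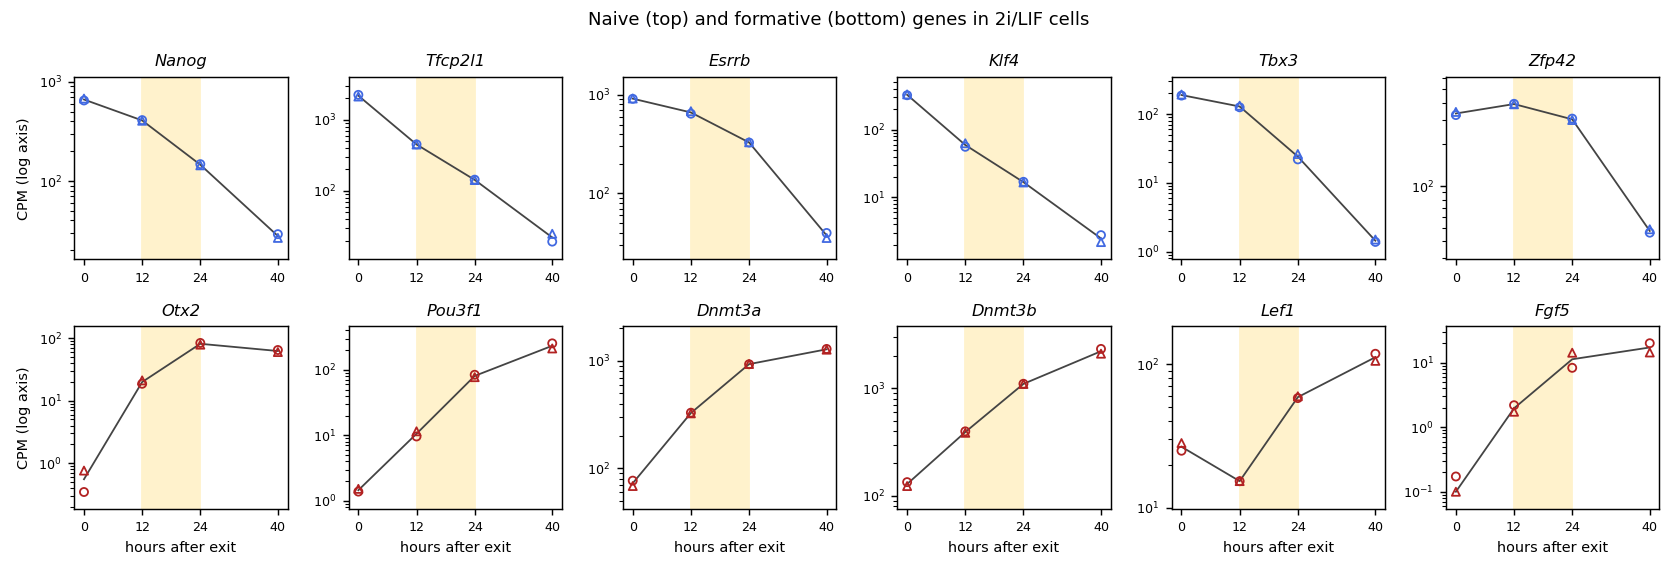
Each panel plots 1 gene's CPM on a log axis against hours after exit from 2i/LIF, with circles and triangles for the 2 libraries of each time and a line through their means; values under 0.1 are drawn at 0.1 and the 12 to 24 h step is shaded. The naive genes of the top row all fall across the shaded step and the formative genes of the bottom row all rise, Lef1 after a dip at 12 h.

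DNA methylation genes moved in both directions. The de novo enzyme gene Dnmt3a (Entrez 13435) rose from 330 and 325 to 930 and 935 CPM (1.51 ± 0.04, adjusted p = 6e-67), and Dnmt3b (Entrez 13436) from 398 and 386 to 1106 and 1100 CPM (1.49 ± 0.04, adjusted p = 1.6e-52). Their catalytically inactive partner Dnmt3l rose from 271 and 260 to 419 and 426 CPM (0.67 ± 0.10), and its annotated span overlaps that of Aire. Uhrf1, which recruits the maintenance enzyme, stood at 803 and 831 CPM at 12 h and 776 and 784 CPM at 24 h and did not pass (-0.07 ± 0.04). Tet2, a dioxygenase that oxidises methylcytosine, fell from 256 and 225 to 173 and 168 CPM (-0.49 ± 0.09). Over the list of 15, 6 rose, 5 fell and 4 did not pass (73.3% called, against 35.1% of all genes).

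Some germline genes that DNA methylation is known to silence rose. Of 21 tested, 6 rose and 15 did not pass, a share called (28.6%) near the 35.1% of all genes, with a median of 0.46. Tex19.1, which guards germ cells against transposons, rose from 95.3 and 88.8 to 152 and 141 CPM (0.67 ± 0.06), and Hormad1, a meiotic axis protein, from 24.1 and 23.5 to 42.6 and 41.9 CPM (0.83 ± 0.10). Dazl, an RNA-binding protein of germ cells, stood at 47.1 and 51.6 CPM and then 46.4 and 48.2 CPM. Imprinted genes rose more often than they fell, 15 against 2 of 25 tested (68.0% called, against 35.1% of all genes), with a median of 0.55. Meg3, a maternally expressed non-coding RNA, rose from 147 and 143 to 254 and 242 CPM (0.78 ± 0.05), Mest from 119 and 127 to 215 and 201 CPM (0.76 ± 0.05), and Cdkn1c, an inhibitor of cyclin-dependent kinases, from 7.81 and 11.0 to 26.9 and 29.3 CPM (1.58 ± 0.14). Plagl1, itself an imprinted zinc finger gene, fell from 30.3 and 32.2 to 6.25 and 8.97 CPM (-2.05 ± 0.14). Of 26 polycomb and trithorax genes, 7 rose and 8 fell (57.7% called, against 35.1% of all genes). Wdr5, a scaffold of histone methyltransferases, fell from 452 and 482 to 318 and 312 CPM (-0.57 ± 0.04) and Ezh2, the methyltransferase of PRC2, did not pass (0.08 ± 0.05).

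Most ERK feedback genes did not pass at this step. Of 18 tested, 3 rose and 4 fell (38.9% called, near the 35.1% of all genes), and the median change was 0.09. Dusp6, the phosphatase that inactivates ERK, was at 84.2 and 77.7 CPM at 12 h and 90.9 and 86.9 CPM at 24 h and did not pass (0.14 ± 0.07). Spry4, an inhibitor of receptor tyrosine kinase signalling, was at 66.1 and 65.0 CPM and then 63.0 and 65.2 CPM (-0.03 ± 0.07). Myc, an early response gene, was at 59.9 and 56.2 CPM and then 61.2 and 59.7 CPM (0.06 ± 0.08). The 3 that rose were Spred1, Etv5 and Dusp4, a nuclear ERK phosphatase, which went from 14.3 and 14.0 to 31.7 and 34.8 CPM (1.23 ± 0.13). Among 13 FGF ligands and receptors, 4 rose and 1 fell (38.5% called, near the share over all genes). Fgf15 rose from 1.10 and 1.87 to 8.61 and 8.21 CPM (2.49 ± 0.30) and the receptor gene Fgfr2 from 4.11 and 2.81 to 15 and 16.9 CPM (2.20 ± 0.21), while the receptor gene Fgfr1 stood at 124 and 133 and then 123 and 124 CPM.

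Several Wnt and LIF targets fell. Axin2, the feedback inhibitor of β-catenin, fell from 29.1 and 28.6 to 15.3 and 14.6 CPM (-0.95 ± 0.12), and Cdx1, a caudal homeobox gene, from 6.30 and 5.75 to 0.972 and 0.760 CPM (-2.77 ± 0.36), after a mean of 181 CPM at 0 h. Of 16 Wnt response genes, 5 fell (against 17.7% of all genes) and 9 did not pass (43.8% called, against 35.1%). The 2 that rose were Lef1 and Tcf7, both of them DNA-binding effectors of the pathway. The median of the 16 was -0.30, or 0.01 with 2 members at 0 counts in a group set to their bound. Of 12 genes of the LIF and STAT3 response, 7 fell and 3 rose (83.3% called, against 35.1% of all genes), with a median of -0.64. Stat3 fell from 54.4 and 60.2 to 34.2 and 34.0 CPM (-0.75 ± 0.09) and Il6st, the gp130 receptor subunit, from 111 and 114 to 78.9 and 76.1 CPM (-0.54 ± 0.06). Socs3, the feedback inhibitor, had gone from 58.0 CPM at 0 h to 2.88 and 3.88 CPM by 12 h and stood at 1.94 and 1.82 CPM at 24 h, without passing. Gadd45g, also listed here as a cytokine-induced gene, rose.

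BMP and Nodal pathway genes fell more often than they rose. Of 13 BMP pathway and Id genes tested, 7 fell and 1 rose (61.5% called, against 35.1% of all genes), with a median of -0.65. Id1 fell from 11.1 and 10.3 to 3.05 and 3.04 CPM (-1.81 ± 0.24) and Id3 from 31.9 and 39.3 to 23.5 and 22.3 CPM (-0.64 ± 0.13); both encode inhibitors of basic helix-loop-helix factors and are direct BMP targets. Bmp4, Id1 and Id3 all stood higher at 12 h than at 0 h, where their means were 6.72, 3.96 and 8.56 CPM. Of 17 Nodal and Activin genes, 9 fell and 3 rose (70.6% called, against 35.1% of all genes). Nodal, the ligand, fell from 86.9 and 77.1 to 60.1 and 60.6 CPM (-0.44 ± 0.07), the antagonist Lefty2 from 44.7 and 48.7 to 23.7 and 26.0 CPM (-0.91 ± 0.10), the inhibitory Smad7 from 72.4 and 78.6 to 33.6 and 39.4 CPM (-1.05 ± 0.09) and the receptor gene Acvr1b from 61.3 and 66.4 to 25.8 and 24.8 CPM (-1.34 ± 0.09). Skil, a SMAD corepressor, rose from 118 and 122 to 200 and 204 CPM (0.75 ± 0.05).

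Notch genes moved in both directions, 7 up and 5 down of 15 (80% called, against 35.1% of all genes). The ligand Dll1 rose from 4.25 and 3.74 to 23.5 and 21.4 CPM (2.49 ± 0.18) and Hes6 from 11.5 and 11.6 to 30.7 and 32.8 CPM (1.45 ± 0.13), whereas the repressor Hes1 fell from 22.6 and 21.4 to 8.75 and 4.56 CPM (-1.70 ± 0.18). Regulators of later lineages stayed low: 9 of 20 had too few counts to test, and of 11 tested 2 rose and 1 fell (27.3% called, against 35.1% of all genes). Wnt8a rose from 0.822 and 1.47 to 4.58 and 5.62 CPM (2.13 ± 0.36) and the neural factor Sox1 from 7.26 and 6.69 to 11.8 and 12.3 CPM (0.79 ± 0.19). T (Brachyury) was at 0.548 and 0.802 CPM and then 0.278 and 0.456 CPM, close to the level of 3 counts.

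**Figure D3:**
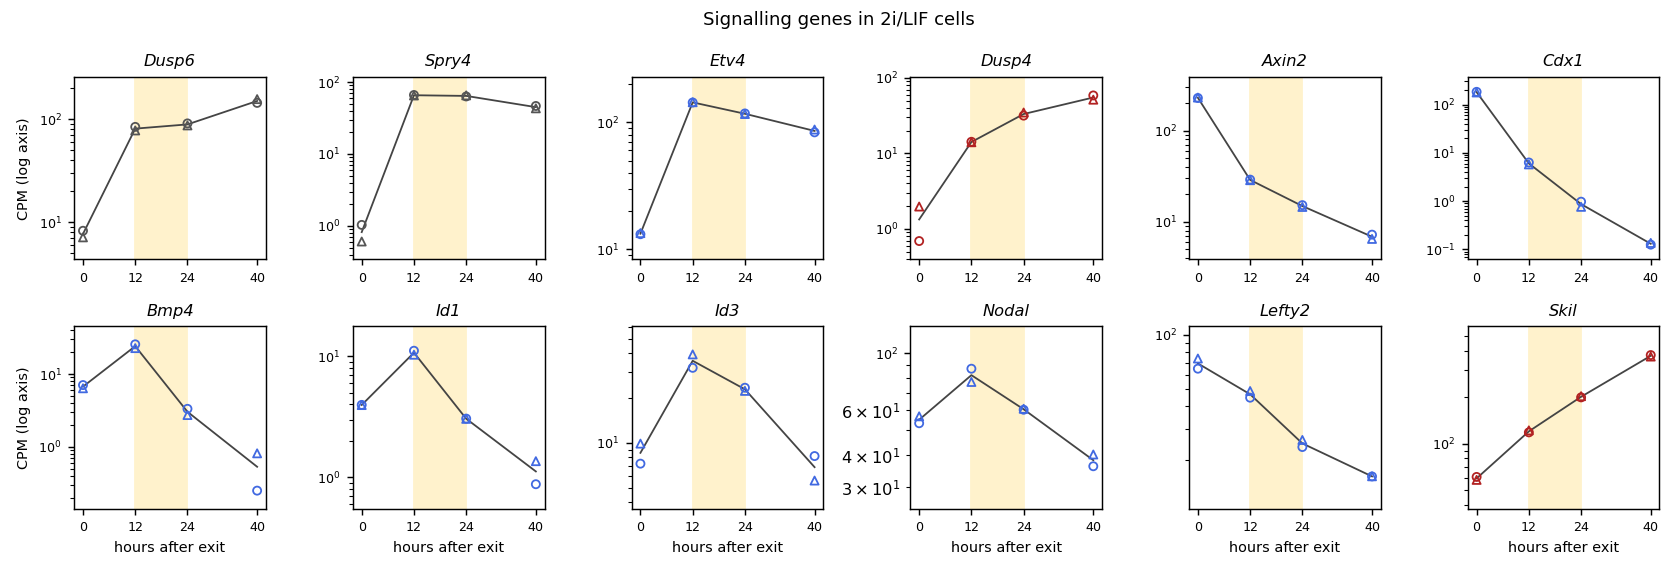
Each panel plots 1 signalling gene's CPM on a log axis against hours after exit from 2i/LIF, with circles and triangles for the 2 libraries, the mean as a line and the 12 to 24 h step shaded; red marks a call higher at this step, blue a call lower and grey no call. Dusp6 and Spry4 rise before 12 h and are level across the shaded step, Axin2 and Cdx1 fall throughout, and Bmp4, Id1 and Id3 peak at 12 h.

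Amino acid transporter genes rose more often than they fell, 15 against 6 of 27 tested (77.8% called, against 35.1% of all genes), with a median of 0.22. Slc38a2, the sodium-coupled transporter of small neutral amino acids such as glutamine, rose from 543 and 548 to 912 and 895 CPM (0.73 ± 0.04, adjusted p = 6e-38). The heavy chain gene Slc3a2 rose from 273 and 292 to 359 and 349 CPM (0.33 ± 0.04), Slc38a1 from 195 and 221 to 262 and 274 CPM (0.37 ± 0.04), and the cystine exchanger Slc7a11 from 5.89 and 5.75 to 14.7 and 11.1 CPM (1.16 ± 0.19). The glutamine carrier Slc1a5 stood at 168 and 176 and then 175 and 188 CPM and did not pass. The cationic amino acid carrier Slc7a1 fell from 236 and 245 to 199 and 185 CPM (-0.33 ± 0.07), the taurine carrier Slc6a6 from 345 and 338 to 220 and 215 CPM (-0.65 ± 0.04), and the creatine carrier Slc6a8 from 148 and 157 to 115 and 110 CPM (-0.44 ± 0.06).

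Genes of the ATF4-driven response to amino acid shortage were in part raised at this step. Of 28 tested, 9 rose (against 17.4% of all genes), 3 fell and 16 did not pass (42.9% called, against 35.1%), with a median of 0.11. Atf4 itself was at 349 and 334 and then 343 and 357 CPM (0.04 ± 0.04, adjusted p = 0.53), and Trib3, a pseudokinase target, at 60.0 and 54.8 and then 53.6 and 58.4 CPM (-0.04 ± 0.07). Chac1, the glutathione-degrading target whose AARE is shown above, rose from 24.5 and 23.4 to 33.7 and 37.7 CPM (0.57 ± 0.11). Asns, asparagine synthetase, fell from 640 and 652 to 470 and 469 CPM (-0.46 ± 0.04), after a mean of 1268 CPM at 0 h, and Cth, cystathionine gamma-lyase, fell from 341 and 348 to 246 and 245 CPM (-0.49 ± 0.04).

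Serine and one-carbon genes were split, 7 up and 11 down of 25 (72% called, against 35.1% of all genes), with a median of 0.0. The serine synthesis genes Phgdh (0.40 ± 0.08) and Psat1 (0.21 ± 0.04) and the mitochondrial folate enzyme Mthfd2 (0.42 ± 0.05) rose, as did Gldc, the glycine decarboxylase, from 154 and 153 to 256 and 247 CPM (0.71 ± 0.05). Tdh and Aldh1l1, a folate dehydrogenase that went from 24.9 and 26.1 to 13.3 and 11.9 CPM (-1.01 ± 0.14), fell. Among 22 genes of glutamine, asparagine and proline metabolism, 8 rose and 6 fell (63.6% called, against 35.1% of all genes). Glutamine synthetase Glul (-0.21 ± 0.05) and glutamate dehydrogenase Glud1 (-0.45 ± 0.04) were among those that fell.

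Glycolysis genes rose in greater number than they fell, 13 against 6 of 27 (70.4% called, against 35.1% of all genes), with a median of 0.35. Ldha, lactate dehydrogenase A, rose from 330 and 328 to 512 and 521 CPM (0.65 ± 0.04, adjusted p = 2.1e-30) and Pkm from 1714 and 1711 to 2342 and 2290 CPM (0.44 ± 0.03). The pyruvate dehydrogenase kinase gene Pdk1 rose from 147 and 147 to 242 and 252 CPM (0.75 ± 0.05), and the glucose carrier Slc2a1 from 144 and 155 to 195 and 197 CPM (0.39 ± 0.05). Another glucose carrier gene, Slc2a3, fell from 958 and 953 to 601 and 593 CPM (-0.68 ± 0.04), as did Hk1 (-0.56 ± 0.06) and Pfkp (-0.68 ± 0.04). Of 60 nuclear genes of oxidative phosphorylation, 17 fell, 2 rose and 41 did not pass (31.7% called, near the background), with a median of -0.08, and 6 of 8 tested mitochondrially encoded genes fell, among them COX1. COX1 fell 1.19-fold (-0.26 ± 0.03).

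Lysosomal genes fell more often than they rose, 22 against 2 of 31 (77.4% called, against 35.1% of all genes), with a median of -0.32. Grn, progranulin, fell from 169 and 167 to 97.3 and 111 CPM (-0.69 ± 0.06), the protective protein gene Ctsa from 101 and 103 to 66.9 and 61.6 CPM (-0.66 ± 0.07), the cholesterol carrier Npc2 from 205 and 211 to 154 and 147 CPM (-0.47 ± 0.05), and Lamp1, a membrane protein of lysosomes, from 367 and 348 to 317 and 298 CPM (-0.22 ± 0.04). Of 28 genes of autophagy and of TFE3, a driver of lysosomal genes, 11 fell and 3 rose (50% called, against 35.1% of all genes). Ulk1, the kinase that starts autophagy, fell from 186 and 188 to 98.6 and 106 CPM (-0.87 ± 0.05), and Mitf from 15.4 and 12.7 to 2.08 and 4.41 CPM (-2.13 ± 0.22). Tfe3 itself rose from 157 and 151 to 201 and 194 CPM (0.36 ± 0.05). Macropinocytosis regulators moved in both directions, 8 up and 7 down of 27 (55.6% called, against 35.1% of all genes). Pak1, the kinase that closes macropinosomes, rose from 83.2 and 77.0 to 103 and 109 CPM (0.40 ± 0.06) and Rac1 did not pass (0.05 ± 0.05).

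Cholesterol synthesis genes rose more often than they fell, 13 against 1 of 25, while 11 did not pass (56% called, against 35.1% of all genes). Their median was 0.17. Fdps, which makes farnesyl diphosphate, rose from 121 and 122 to 158 and 145 CPM (0.32 ± 0.05), Hsd17b7, a sterol reductase of the late pathway, from 32.8 and 30.2 to 46.2 and 48.0 CPM (0.58 ± 0.10), and Insig1, the sterol-sensing brake on SREBP, from 214 and 222 to 262 and 258 CPM (0.25 ± 0.04). The 2 times did not overlap in any of the 3, as in 66.2% of all genes. Few ribosomal protein genes moved: of 77, 4 rose and 6 fell (13% called, below the 35.1% of all genes).

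**Figure D4:**
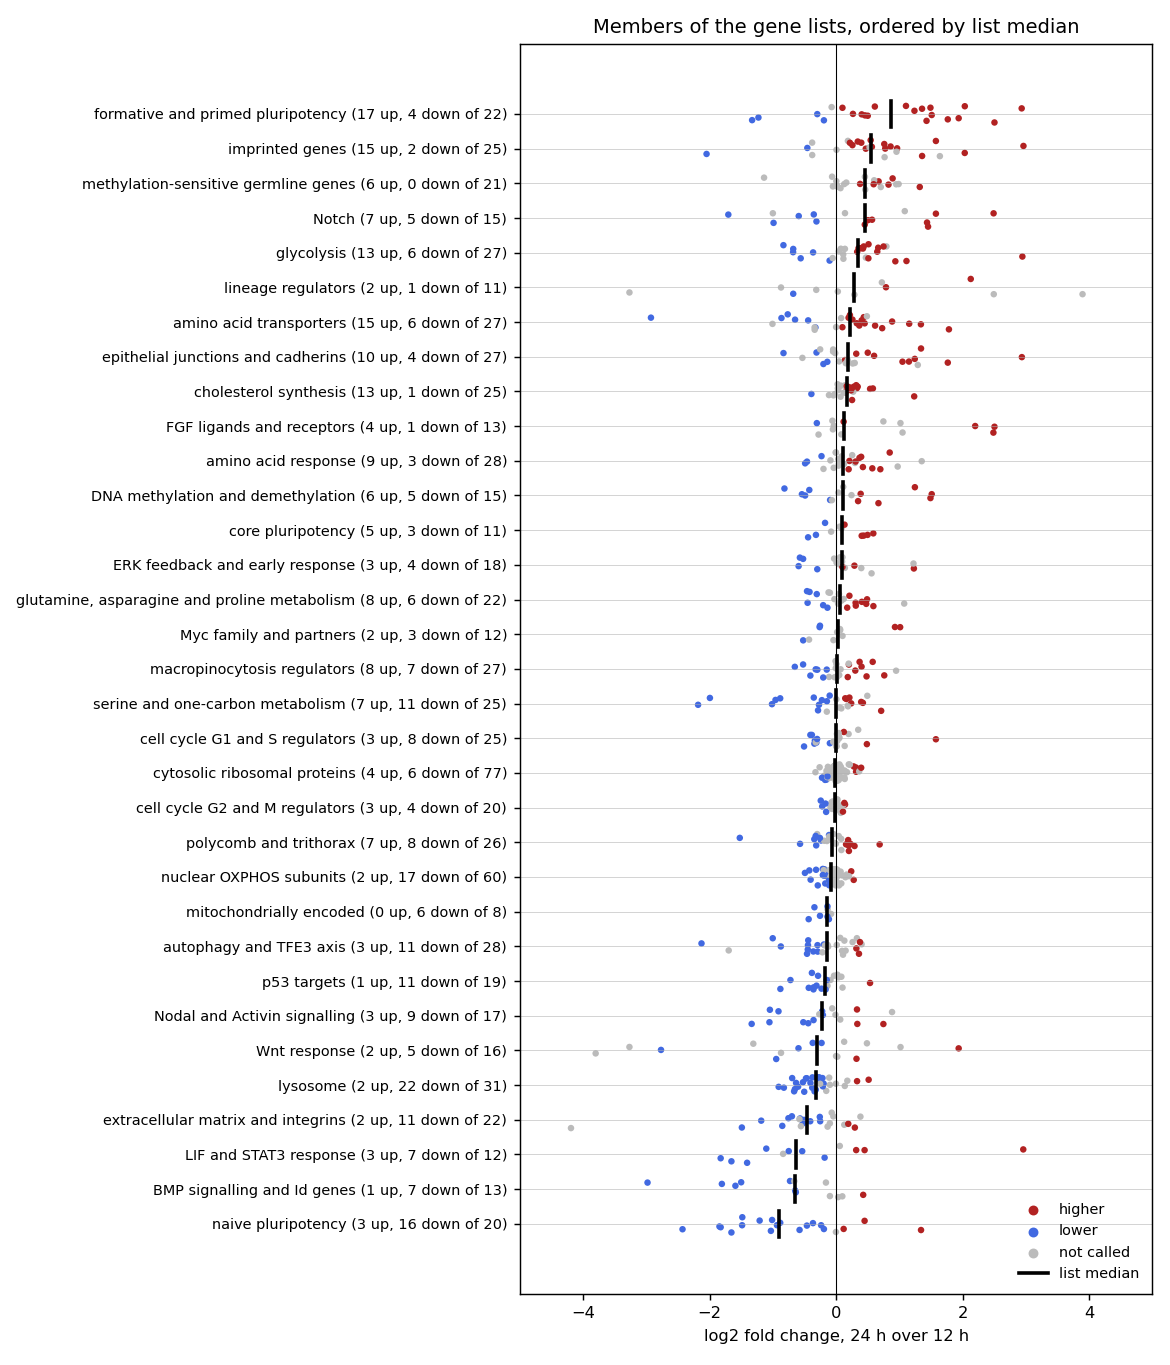
Each row is 1 gene list, markers of other cell types left out, ordered by its median, and each point a tested member at its fitted log2 fold change, 24 h over 12 h, red where called higher, blue where called lower and grey otherwise; the black bar is the list's median. Of the lists drawn, formative genes lie farthest right (median 0.86) and naive genes farthest left (median -0.91), while ribosomal protein genes lie close to 0 (median -0.01).

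Most cell cycle genes moved little or did not pass. Of 25 G1 and S regulators, 3 rose and 8 fell (44% called), and of 20 G2 and M regulators, 3 rose and 4 fell (35% called, against 35.1% of all genes), with medians of 0.0 and -0.01. The G1 and S member with the largest rise was Cdkn1c (1.58), given above with the imprinted genes. Ccne1, cyclin E1, rose from 217 and 215 to 298 and 307 CPM (0.49 ± 0.04) and Ccnd3, cyclin D3, fell from 287 and 301 to 213 and 201 CPM (-0.51 ± 0.05). Ccnb1 and Cdk1, the mitotic cyclin and its kinase, did not pass (0.08 ± 0.05 and 0.02 ± 0.04). Mycn rose from 97.4 and 94.9 to 180 and 186 CPM (0.93 ± 0.06). Of 19 p53 targets and partners, 11 fell and 1 rose (63.2% called, against 35.1% of all genes). Trp53 fell from 641 and 616 to 498 and 483 CPM (-0.36 ± 0.04), Cdkn1a from 110 and 108 to 80.8 and 86.3 CPM (-0.38 ± 0.06) and Tigar from 105 and 111 to 55.3 and 62.3 CPM (-0.88 ± 0.07). Pmaip1, a pro-death BH3-only gene, rose (0.54 ± 0.07).

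Genes of the junction list rose more often than they fell, and matrix genes fell more often than they rose. Of 27 genes of junctions, cadherins and their regulators, 10 rose, 4 fell and 13 did not pass, with a median of 0.18. The share called was 51.9%, against 35.1% of all genes and 396 of 766 tested members of all lists. Those that rose include regulators that encode no junction protein: Zeb2 (2.94 ± 0.63), and Grhl2 and Esrp1, given above. Epcam rose from 82.6 and 88.8 to 196 and 184 CPM (1.15 ± 0.05, adjusted p = 1.3e-39) and the desmosomal plakophilin gene Pkp2 from 37.0 and 36.6 to 55.4 and 56.2 CPM (0.60 ± 0.09), whereas Jup, plakoglobin, fell from 220 and 219 to 121 and 125 CPM (-0.83 ± 0.05). Of 22 matrix and integrin genes tested, 11 fell, 2 rose and 9 did not pass (59.1% called, against 35.1% of all genes). Their median was -0.46, or -0.33 with 1 member at 0 counts set to its bound. Nid1, the basement membrane linker nidogen, fell from 425 and 442 to 155 and 154 CPM (-1.49 ± 0.04, adjusted p = 1.6e-59), and the perlecan gene Hspg2 from 516 and 527 to 300 and 278 CPM (-0.85 ± 0.04). Fn1, fibronectin, fell from 2179 and 2252 to 1545 and 1573 CPM (-0.51 ± 0.03).

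Most markers of other cell types were at low levels. Of those tested, 50% of trophectoderm and 37.5% of primitive endoderm markers were called. The share was 33.3% each for 2-cell-like, fibroblast and neural markers, and 35.1% over all genes. Summed over 12 trophectoderm markers, the libraries held 37.0 and 40.4 CPM at 12 h and 25.3 and 22.3 CPM at 24 h, with Hand1 at 0 counts in all 4 and Cdx2 at 0 to 3 counts; 4 of 10 tested fell and 1 rose. The 12 primitive endoderm markers summed to 341 and 337 and then 205 and 208 CPM, most of it Sparc, and of 8 tested 2 were called lower and 1 higher. Sparc and the laminin gene Lama1 (19.7 and 20.2 to 7.91 and 9.73 CPM) fell, Cubn was called higher (0 and 0.535 to 1.53 and 1.06 CPM) but not without 12 h replicate 1 (adjusted p = 0.27) or 24 h replicate 1 (adjusted p = 0.15), and Gata6, Sox17, Sox7 and Foxa2 had 0 to 6 counts. The 12 fibroblast markers summed to 6.72 and 6.42 and then 7.64 and 8.97 CPM, and 2 of 6 tested were called higher. Dcn, decorin, went from 0.137 and 0 to 1.53 and 1.06 CPM, and Thy1 from 0.822 and 2.27 to 2.92 and 3.65 CPM, a call lost without 12 h replicate 1 (adjusted p = 0.41) and without 24 h replicate 2 (adjusted p = 0.16). Postn, Lum, Fap, Twist2 and Prrx1 were at 0 counts in all 4 libraries. The 12 neural markers summed to 86.9 and 92.4 and then 88.2 and 88.3 CPM. The 14 2-cell-like markers summed to 22.6 and 15.6 and then 34.4 and 41.6 CPM, with 4 of 12 tested called higher and 8 that did not pass; Zscan4d went from 4.52 and 4.68 to 9.72 and 11.3 CPM (1.18 ± 0.22), though near-identical Zscan4 copies can share reads. The part of these sums in the rise of germline and imprinted genes was not tested.

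Promoters of the genes that moved most held fewer CpGs. Promoters were found for 10940 of the 14288 tested genes (13892 windows of 300 bases, the 250 before and 50 after each start). An observed over expected CpG ratio above 0.6 was met by 67.0% of windows of all tested genes, 66.6% of called-higher genes and 65.7% of called-lower genes, but by 42.9% for genes that rose more than 2-fold and 43.3% for those that fell more than 2-fold. In the stretches printed above, the ratio was 0.24 for Vrtn, 0.18 for Nanog and 0.45 for Bmp4, against 0.61 for Dnmt3b, 0.65 for Chac1 and 0.67 for Gadd45g. Motif shares, searched on both strands, were set against those of all tested genes. The E-box was in 10.6% of windows of genes called higher and 9.53% of those called lower against 9.97%, the OTX2 motif in 5.16% and 4.99% against 5.63%, the octamer in 1.68% and 1.26% against 1.33%, and the AARE in 0.760% and 0.419% against 0.612%. The other motifs gave ESRRB (TCAAGGTCA) 0.240% and 0.267% against 0.266%, TCF (ATCAAAG) 2.36% and 2.32% against 2.56%, and NRF1 1.52% and 1.26% against 1.94%. Where letters overlap, as in Gadd45g, a window counted once for each motif.

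The second 12 h differed from the first in many genes. The difference between the 12 to 24 h change and the 0 to 12 h change passed the test for 3696 genes (25.9%), 1745 of them with the more positive change in the second 12 h (12.2%) and 1951 with the more negative one (13.7%). Because both changes use the 12 h libraries, their values are only set side by side. The 0 to 12 h change passed for 44.7% of genes and the 24 to 40 h change for 46.7%. Over all genes the median absolute log2 change was 0.291 in the first 12 h, 0.23 in this step and 0.28 from 24 to 40 h, the last over a longer time.

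The naive factors did not fall on one schedule. Tfcp2l1 and Klf4 lost most in the first 12 h: Tfcp2l1 went from a mean of 2182 CPM to 450 and then 143 CPM, and its change was less negative in the second 12 h by 0.62 (adjusted p = 2e-13), that of Klf4 by 0.64 (adjusted p = 0.00016). Nanog, Esrrb and Tbx3 lost more in the second: Tbx3 fell by 0.55 in the first 12 h and by 2.43 in the second (difference -1.88 ± 0.11, adjusted p = 1.2e-29), and the differences of Nanog and Esrrb were -0.78 and -0.55. Zfp42 rose by 0.23 in the first 12 h before it fell by 0.37 (difference -0.59). Tdh fell by 0.85 and 0.88, and its difference did not pass (-0.03, adjusted p = 0.77). Over the 20 naive genes, 13 changes were more negative (against 13.7% of all genes) and 6 more positive (against 12.2%) in the second 12 h.

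Rises, too, were early or late. Dusp6, Spry4, Etv4 and Myc rose in the first 12 h and not in the second, and the difference for Spry4 was -6.35 ± 0.26. Of the 18 ERK feedback genes, 11 differences were negative (against 13.7% of all genes) and 1 positive (against 12.2%). Dnmt3b rose in both (1.61 and 1.49, difference adjusted p = 0.23), and Dnmt3a more in the first (2.17 and 1.51, difference -0.66 ± 0.07). Lef1 fell and then rose (difference 2.73, adjusted p = 3.6e-23). For glycolysis, 19 of 27 differences were positive (against 12.2%) and 4 negative (against 13.7%): Ldha had fallen by 0.44 before it rose by 0.65, and Pkm had not moved (-0.00 ± 0.03) before it rose. For lysosomal genes, 22 of 31 differences were positive (against 12.2%) and 2 negative (against 13.7%), and the median change was -0.32 in the second 12 h and -0.86 in the first.

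The 12 to 24 h step was also measured in cells from serum/LIF+2i, with no library in common. There it passed for 48.4% of genes. Of 14288 genes, 2440 changed differently in the 2 media (17.1%), 1030 with a more positive change in cells from serum/LIF+2i (7.21%) and 1410 with a more negative one (9.87%). The media differ in serum, in basal medium and in the medium used for exit, and these cannot be told apart. Across genes the 2 sets of changes had a Pearson correlation of 0.631 (Spearman 0.61), a description over 14288 genes that are not independent. Of 3601 genes called in both, 95.1% moved in the same direction; this is 71.7% of the 2i/LIF calls and 52.1% of the serum/LIF+2i calls. The 24 h serum/LIF+2i libraries differed more than other pairs by a chi-square of their counts (5.42 per degree of freedom), though not by their correlation (0.994), and held 1.77% and 0.796% ribosomal RNA.

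For 12 of 20 naive genes the change was more negative in cells from serum/LIF+2i, against 9.87% of all genes, and 8 differences did not pass. Among the 12, Gbx2 had risen in 2i/LIF (0.45) and changed by 0.08 there. Nanog went from 352 and 365 to 61.3 and 58.7 CPM there (-2.58, difference -1.09 ± 0.07, adjusted p = 3.6e-29), so that at 24 h it was lower than the 148 and 144 CPM of cells from 2i/LIF. Tdh fell by 1.85 there against 0.88 (difference adjusted p = 8.6e-29). The guidance gene Ntn1 fell by 3.43 against 1.54 (difference -1.89 ± 0.14). Dnmt3b rose in the 2 media by 1.55 and 1.49, with no difference that passed (0.06 ± 0.05, adjusted p = 0.48).

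Changes in genes of the amino acid response were more positive in cells from serum/LIF+2i: 22 of 28 differences were called positive and 6 did not pass, against 7.21% positive over all genes. Trib3 rose in cells from serum/LIF+2i from 63.9 and 63.4 to 189 and 184 CPM and not in cells from 2i/LIF (difference 1.59 ± 0.09, adjusted p = 2.9e-29). Atf4 rose there from 317 and 320 to 480 and 488 CPM (difference 0.57 ± 0.05), Chac1 from 28.0 and 26.6 to 106 and 105 CPM (difference 1.38 ± 0.14), and Atf3, a stress-induced factor, from 1.49 and 0.745 to 18.2 and 18.2 CPM (difference 3.77 ± 0.53). Among amino acid transporter genes, Slc7a11 (difference 1.60 ± 0.26), Slc7a1 (0.90) and Slc3a2 (0.52) also differed, while Slc38a2 did not by the test (0.12, adjusted p = 0.071). Of the 27 transporter genes tested, 7 differences were called positive and 4 negative, against 7.21% and 9.87% of all genes. Asns and Psat1 did not differ by the test (-0.08 and -0.08, adjusted p = 0.36 and 0.29). In 2i/LIF, Chac1 and Trib3 rose between 24 and 40 h, when Chac1 stood at 110 and 118 CPM and Trib3 at 114 and 122 CPM.

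Glycolysis genes moved the other way: 17 of 27 differences were called negative and 10 did not pass, against 9.87% negative over all genes. Ldha fell in cells from serum/LIF+2i from 786 and 821 to 645 and 648 CPM while it rose in cells from 2i/LIF (difference -0.96 ± 0.05, adjusted p = 1.7e-31). Slc2a1 fell there from 156 and 172 to 128 and 126 CPM (difference -0.76 ± 0.07), and Slc16a3 rose in both media, from 52.9 and 47.9 to 175 and 168 CPM there (difference -1.17 ± 0.12). Of 60 nuclear oxidative phosphorylation genes, 16 differences were called negative, as were 9 of 20 for G2 and M genes, against the same 9.87%. Of 31 lysosomal genes 12 were positive, against 7.21% of all genes, and 1 negative, and Stra8, a retinoic acid target of germ cells, rose by 2.89 there against 0.89 (difference 2.00 ± 0.22).

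**Figure D5:**
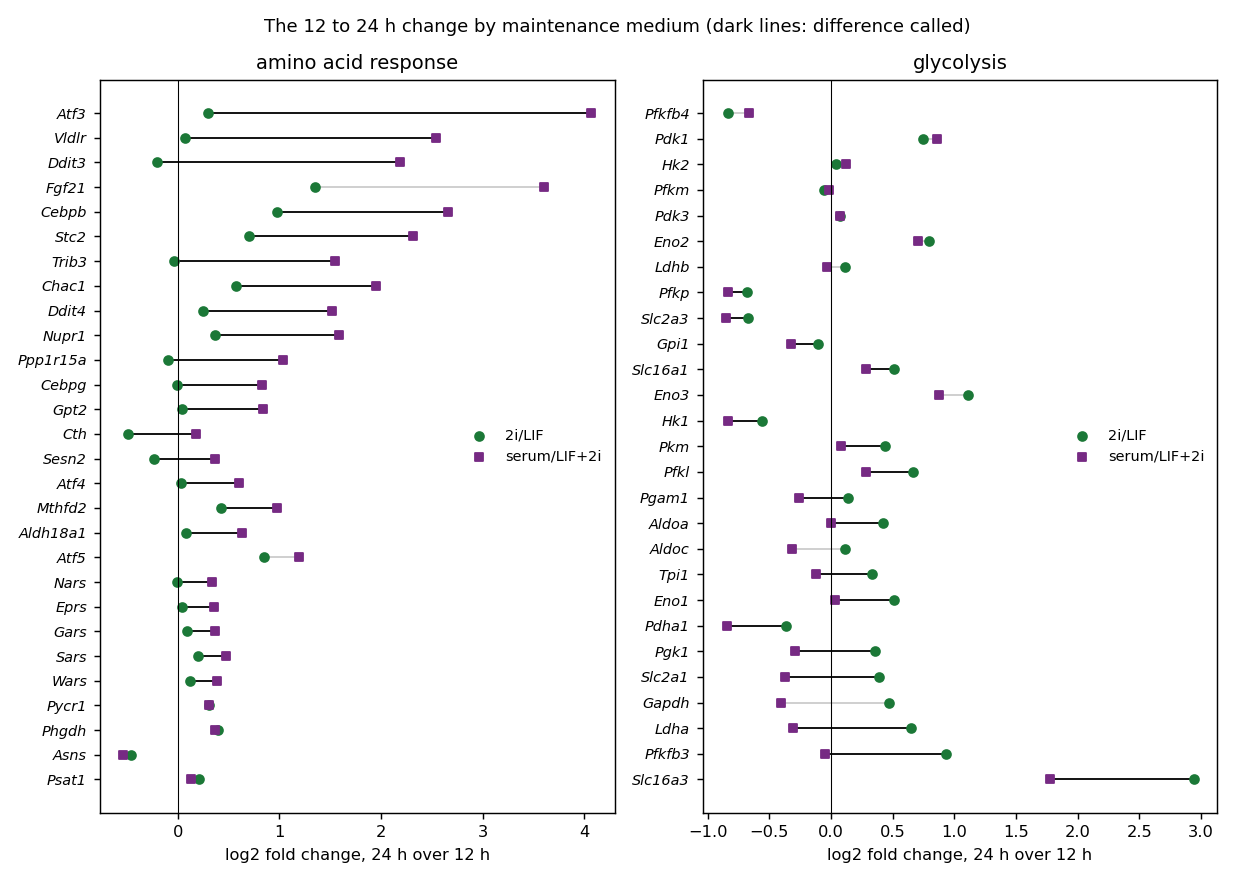
Each row is 1 gene, with its fitted log2 fold change, 24 h over 12 h, as a green circle for cells from 2i/LIF and a purple square for cells from serum/LIF+2i, joined by a dark line where the difference was called. In the left panel 22 of 28 amino acid response genes have a dark line to a square on the right; in the right panel 17 of 27 glycolysis genes have one to a square on the left.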

How the data were processed

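RNA was extracted with TRIzol and read as stranded poly(A) libraries, per the labels' protocols. Reads went through fastp, STAR and featureCounts on mm10, per the submitters' processing notes; versions, annotation and the strand setting are not given in the sources used here, so reads of overlapping or antisense genes (Slc16a3, Dnmt3a, Dnmt3l, Sox1, Sox2, Bmp4, Trpm1, Ctsa, Dmgdh, Gldc, Greb1l, Ncl, Meg3, Mest, Ccnd3, Tcf7, Hk1 and Pfkp among those named) may be shared. The authors deposited raw counts per gene for the 16 libraries.

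Counts were filtered with filterByExpr (minimum count 10, total 15), scaled by TMM and fitted with edgeR 4.0.16 (R 4.3.3, quasi-likelihood, all 8 groups, 8 residual degrees of freedom, Benjamini-Hochberg). The contrasts tested were the 12 to 24 h step, that step against the first 12 h, and that step in serum/LIF+2i against 2i/LIF. Totals of 6629047 to 7579351 counts limit precision at low levels. Simulated data for the 12 to 24 h step had 50 genes changed at each fold and the rest unchanged. There the fit recovered 36% of genes changed 1.25-fold and 82% of those changed 2-fold. It made 9 false calls among 14288 genes, beside 18, 27, 41 and 47 recovered at 1.25-, 1.5-, 2- and 4-fold. In the data 5021 genes were called, so these rates need not carry over. Alternatives were DESeq2 1.42.0, other scalings and filters, a minimum fold, a replicate block and leaving out each library.

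Named genes were marked members of each list and its 5 members of smallest adjusted p; the 12 largest called rises and falls with a mean of at least 5 CPM and no overlap; the 6 largest differences in each direction of the other contrasts; the 10 highest genes; and the 6 largest gains and losses in CPM. Gbx2 and Etv5 were named after their values were seen, to complete a count, as was Zeb2, to describe its list. The genes and lists were chosen with earlier results of these data known. For the serum/LIF+2i exit the protocol names 24 and 40 h while sample titles also give 12 h; titles were followed. Some named genes are not reported here.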

Additional observations from a re-analysis of the deposited data

Results flagged for a closer look

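Changes that differed between the first and the second 12 h, or between the 2 media, were singled out, since each difference was itself tested with edgeR. The 12 to 24 h change differed from the 0 to 12 h change in 3696 genes, and from the same step in serum/LIF+2i in 2440 genes.

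Between the second and the first 12 h, the differences in log2 change were positive for Exph5 (6.45), Ly6g6e (5.65), Cyp1a1 (4.76), T (4.46), Frem2 (4.39) and Lad1 (4.37). A positive difference need not mean a rise in the second 12 h. T changed by -5.33 in the first 12 h and by -0.87 in the second, which did not pass. For T the difference was 4.09 without 24 h replicate 2 and no longer passed (adjusted p = 0.069). They were negative for Prss50 (-11.01), Spry4 (-6.35), Zfp423 (-6.26), Soga3 (-6.1), Itga9 (-5.97) and Eras (-5.88). Prss50 had 0 counts at 0 h, so its fitted value is no bound; it was at least 55.6-fold higher at 12 h than the level of 3 counts over the 0 h group, 0.517 CPM.

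Between media, the change was more positive in cells from serum/LIF+2i for Atf3 (3.77), Trim66 (3.06), Vldlr (2.46), Derl3 (2.44), Ddit3 (2.39) and Serpinf1 (2.03). It was more negative for Xaf1 (-3.04), Peg12 (-2.25), Ntn1 (-1.89), Nefm (-1.83) and Samd9l (-1.71). For Nefm the difference was -1.19 without 24 h 2i/LIF replicate 2 and no longer passed (adjusted p = 0.14).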

How the results depend on the processing

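Among named genes, no call changed direction under an alternative that gave the gene a value. Stricter filters and DESeq2 gave no value for some named genes. For the other genes, direction was not compared between settings. Requiring a change above 2-fold in the test itself (glmTreat) left 240 genes at the 12 to 24 h step, 438 for the second against the first 12 h, 12 between media, 36 listed genes and 51 named genes. DESeq2 called 3457 genes at the step, 3456 of them shared, 2335 for the second against the first 12 h and 1240 between media. Leaving out 1 library in turn gave 3839 to 3942 calls at the step, 2502 to 3301 for the second against the first 12 h, 1772 to 1964 between media, 333 to 358 listed genes and 219 to 226 named genes; fewer libraries were then fitted. Replicate numbers did not pair the samples (correlations of deviations from -0.023 to 0.033 over 28 pairs of groups), and a fit with the replicate block called 5054, 3729 and 2475 genes, with 400 listed and 241 named genes. Library size alone gave 5011 calls at the step, DESeq2 size factors 5026, no filter 4777 and leaving out ribosomal RNA genes 5034. Counting depth limits genes under about 1 CPM, where 3 counts correspond to 0.401 to 0.456 CPM.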
